A study of Mus musculus with 8 samples.

Results

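The genes described here encode the proteins of the mitochondrial ribosome. They were taken as every gene whose symbol in the array's annotation begins with Mrpl (large subunit) or Mrps (small subunit) and continues with a digit. A cluster of their own (a transcript cluster is the array's set of probes for a transcript) was found for 77 such genes, of 19933 genes in all. Of these, 48 are named for the large subunit and 29 for the small subunit. Mrpl53 shares its cluster with a neighbouring gene and was not analysed here.

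The mitochondrial ribosome, or mitoribosome, is the machine inside mitochondria that reads the messenger RNAs of the mitochondrial genome. Those messengers encode core subunits of the respiratory chain and of ATP synthase, on which the beating heart depends for energy. The ribosomal RNAs are made inside mitochondria, whereas the proteins are encoded in the nucleus, made in the cytosol and imported. The small subunit holds the messenger and decodes it, and the large subunit joins the amino acids and passes the growing chain to the inner membrane.

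Hearts came from male C57BL/6 mice aged 6 weeks, kept on normal chow. One group of 4 was wild type (WT) and the other group of 4 was the line that the design text calls MCH3-KO, which lacks HDAC3 (KO), the histone deacetylase of the NCoR and SMRT corepressor complexes. Neither the promoter behind the deletion nor the heart cells that lost the gene is stated in any source used here. Each array stands for one heart, numbered as a biological replicate.

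Median intensities of the arrays lay between 54.1 and 56.5, and no array stood apart by its correlation with the others of its group (Pearson r across clusters 0.993 to 0.997). Hdac3 itself read 10.10 ± 0.08 in WT and 8.57 ± 0.05 in KO (mean log2 intensity ± SD, n = 4), with no overlap of the groups. Cardiomyocyte markers were bright in both groups. The ventricular light chain Myl2, for example, read 12.70 ± 0.05 in WT and 12.51 ± 0.06 in KO (SD, n = 4). Of 12 cardiomyocyte markers, 3 fell, Myl2 among them, and the other 9 did not pass in limma. Every KO heart lay below every WT heart for 6 of the 12 and above for 3. All 16 macrophage markers rose, with a median difference of 1.35, while 0 of 8 endothelial markers passed in limma. The endothelial marker nearest to passing, Vwf, differed by 0.15 (adjusted p = 0.241, limma), and 0 of the 8 had an unadjusted p under 0.05. In whole hearts a smaller share of a cell type cannot be told apart from less RNA per cell of that type. Differences below are KO minus WT in log2 intensity, from limma fitted over all 14950 genes above a brightness filter, with p-values adjusted by the Benjamini-Hochberg method and a threshold of 0.05. Levels of different genes cannot be compared, because each gene has its own probes.

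Before the values, the reading of some members needs a limit. Of the 85 clusters that name a mitoribosomal gene alone, 7 lie, in the array's numbering, among clusters of genes from another chromosome than that of the gene they name. For 5 genes (Mrpl27, Mrpl41, Mrpl48, Mrpl51 and Mrps33) such a cluster was the brighter or the only one and was used. Whether these clusters read the gene or a copy of it elsewhere in the genome was not tested.

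All 77 members passed the brightness filter. Mitoribosomal genes did not move as a block: 7 rose and 12 fell, and 58 did not pass the test. The 19 changed genes are 24.7% of the members, and 24.6% of all genes tested changed. The share that rose was 9.09% against 10.8% of all genes, and the share that fell was 15.6% against 13.9%. The median difference of the members was -0.04, beside -0.01 over all genes; with quantile normalisation both medians were -0.013. Differences ran from -0.43 to 0.79, with standard errors between 0.04 and 0.10. Their SD over genes was 0.20, beside 0.27 over all genes.

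**Figure D1:**
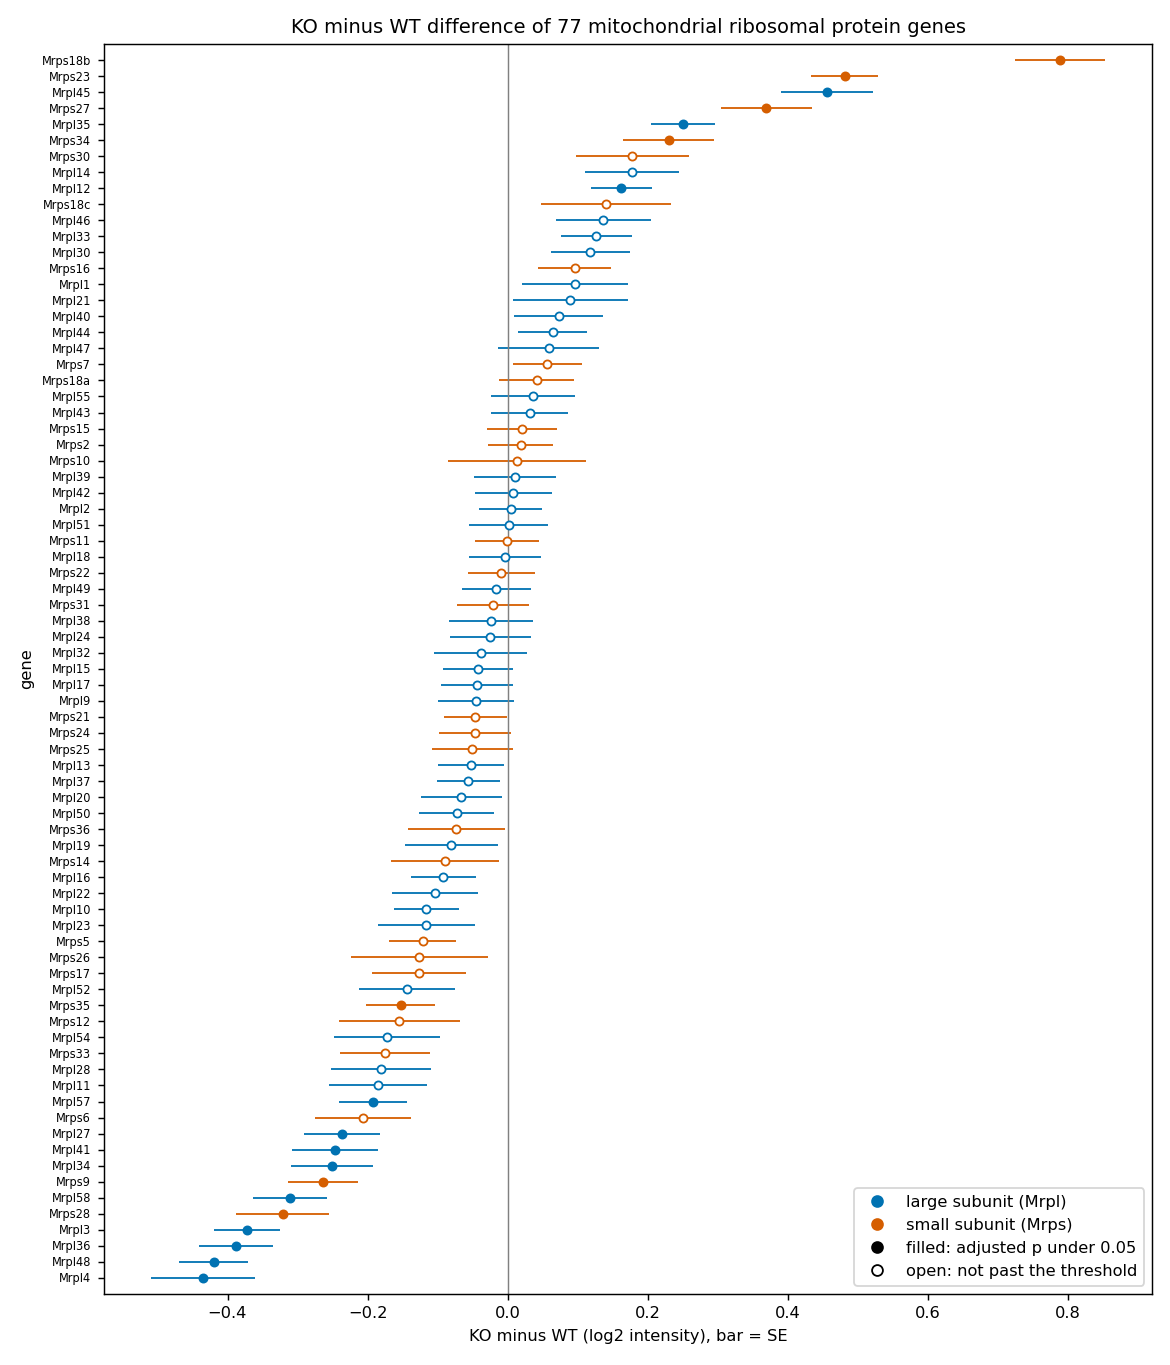
KO minus WT difference in log2 intensity (x axis) for each of the 77 mitoribosomal genes (y axis, ordered by difference), with bars of 1 SE, n = 4 hearts per group. Filled points passed the threshold: 12 at the low end, led by Mrpl4 (-0.43), and 7 at the high end, led by Mrps18b (0.79); both colours, large and small subunit, occur throughout.

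The start regions of 3 members that rose and 2 that fell are shown first, as examples chosen after their values were seen; they are not the largest falls, which were those of Mrpl4 and Mrpl48. Of the 77 genes, 68 had a start in the RefSeq promoter table (build GRCm38.p6). Each line gives the 120 bases before the annotated start, read 5′ to 3′ on the strand of the gene. Capitals mark matches to the searched motifs of NRF1, GABP, YY1 and the E-box; the first pair has no capitals because none of the searched motifs was found there.
Mrps18b (rose; chr17:35916441-35916560, minus strand): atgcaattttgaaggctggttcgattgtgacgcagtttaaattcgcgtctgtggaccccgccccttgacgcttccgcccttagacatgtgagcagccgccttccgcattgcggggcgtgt
Mrps23 (rose; chr11:88204268-88204387, plus strand): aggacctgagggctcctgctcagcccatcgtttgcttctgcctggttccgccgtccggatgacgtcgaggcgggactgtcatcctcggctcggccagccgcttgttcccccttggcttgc
Mrpl45 (rose; chr11:97315596-97315715, plus strand): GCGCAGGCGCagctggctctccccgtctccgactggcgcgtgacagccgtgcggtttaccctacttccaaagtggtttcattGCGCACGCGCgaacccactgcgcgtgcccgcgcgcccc
Mrpl3 (fell; chr9:105053148-105053267, plus strand): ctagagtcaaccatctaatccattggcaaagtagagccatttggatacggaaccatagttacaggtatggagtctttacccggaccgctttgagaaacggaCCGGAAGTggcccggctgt
Mrpl36 (fell; chr13:73330889-73331008, plus strand): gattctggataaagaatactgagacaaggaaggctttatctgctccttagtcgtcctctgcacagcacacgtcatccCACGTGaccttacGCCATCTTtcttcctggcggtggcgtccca

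NRF1, GABP and YY1 are transcription factors known for binding near the starts of nuclear genes of mitochondria. Motifs were searched on both strands of the full 300-base windows (250 bases before the start and 50 after). The NRF1 motif, a palindrome with a free centre, stood in the windows of 20.6% of members and 7.00% of all genes in the table. The GABP letters CCGGAAGT stood in 17.6% of members and 4.31% of all genes, and the YY1 letters AAGATGGC in 17.6% and 3.19%. The E-box CACGTG stood in 7.35% and 8.09%, and the estrogen-related receptor motif TNAAGGTCA and the ATF4 motif TGATGNAA in 0 members, beside 1.43% and 4.51% of all genes. Among members with a window, the NRF1 motif was found in 2 of 6 that rose, 2 of 9 that fell and 10 of 53 that did not pass. The GABP letters were found in 1 of 6, 3 of 9 and 8 of 53, and the YY1 letters in 2 of 6, 1 of 9 and 9 of 53. Mrpl45 held the NRF1 motif 120 and 38 bases before the start and also 15 bases after it. Mrpl3 held the GABP letters 19 bases before its start. These are letter matches, and no binding was measured. The 27025 genes of the table were not filtered by brightness, as the members were, and base composition was not matched.

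Mrps18b had the largest difference of any mitoribosomal gene. It encodes one of 3 mitochondrial relatives of bacterial ribosomal protein S18. In WT hearts 1 to 4 it read 8.83, 8.85, 8.69 and 8.80 on the log2 scale, and in KO hearts 1 to 4 it read 9.47, 9.54, 9.59 and 9.72. Every KO heart lay above every WT heart, with KO heart 4 highest. Mrps18b rose by 0.79 (SE 0.06, 95% interval 0.64 to 0.93, adjusted p = 1.85e-05, limma), a 1.73-fold higher level. It was the only member to rise by at least 1.5-fold.

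Of the 3 relatives of S18, Mrps18b passed the threshold and the other two did not. Mrps18a read 8.56 to 8.69 in WT and 8.62 to 8.77 in KO, and differed by 0.04 (adjusted p = 0.642). Mrps18c read 7.67 to 8.04 in WT and 7.85 to 8.15 in KO, and differed by 0.14 (SE 0.09, adjusted p = 0.322). Within each heart, Mrps18b minus Mrps18a was 0.13 to 0.22 in WT and 0.80 to 0.96 in KO. Mrps18b minus Mrps18c was 0.65 to 1.18 in WT and 1.55 to 1.69 in KO. These contrasts are a description with no test, because Mrps18b was picked out for having the largest difference of the members. Despite their names, structures of the mammalian mitoribosome place the proteins of Mrps18a and Mrps30 in the large subunit. Mrps30 read 6.12 to 6.40 in WT and 6.29 to 6.57 in KO, overlapping, with a difference of 0.18 (SE 0.08, adjusted p = 0.141).

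Other small-subunit genes rose as well. Mrps23 encodes a small-subunit protein with no bacterial counterpart. It read 9.76, 9.89, 9.78 and 9.78 in WT and 10.30, 10.27, 10.31 and 10.26 in KO, which rose by 0.48 (SE 0.05, adjusted p = 6.31e-05, limma). The KO hearts were close to each other and well above the WT hearts. Mrps27, which encodes a protein with pentatricopeptide repeats, an RNA-binding fold, read 6.93, 7.04, 6.98 and 6.91 in WT and 7.42, 7.39, 7.37 and 7.17 in KO. Its KO heart 4 lay nearer to WT than the rest but did not overlap, and the gene rose by 0.37 (SE 0.06, adjusted p = 0.00208). Mrps34 read 7.13, 7.23, 7.07 and 7.09 in WT and 7.39, 7.26, 7.29 and 7.50 in KO. The lowest KO heart was just above the highest WT heart. The difference was 0.23 (SE 0.06) with an adjusted p of 0.0258, which ranged from 0.00812 to 0.072 over the alternatives. Mrps34 lost its call without WT replicates 1, 3 or 4 or KO replicate 1 (adjusted p = 0.0571 to 0.072).

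Small-subunit genes that fell numbered 3. Mrps28 read 7.59, 7.65, 7.77 and 7.55 in WT and 7.35, 7.35, 7.18 and 7.39 in KO. It fell by 0.32 (SE 0.07, adjusted p = 0.00541), and the groups did not overlap. Mrps9, the counterpart of a bacterial protein in the head of the small subunit, fell by 0.26 (SE 0.05, adjusted p = 0.00322), from 7.37 to 7.51 in WT to 7.13 to 7.19 in KO. Mrps35 fell by 0.15 with an adjusted p of 0.048, which ranged from 0.00829 to 0.121 over the alternatives. Its call was lost on leaving out any single array other than WT replicate 2. Mrps6 stood just outside the threshold at -0.21 (adjusted p = 0.0528), and Mrps33 at -0.18 (adjusted p = 0.0746), each with overlapping groups. Both passed without KO replicate 4 (adjusted p = 0.0305 and 0.0203), Mrps6 also without WT replicate 3 (0.0468) and Mrps33 without WT replicate 2 (0.0361).

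In the large subunit 3 genes rose and 9 fell. Mrpl45 encodes a protein beside the exit of the nascent chain that holds the ribosome to the inner membrane. It read 8.04, 7.85, 7.75 and 7.93 in WT and 8.34, 8.35, 8.41 and 8.28 in KO. All KO hearts were higher, and Mrpl45 rose by 0.46 (SE 0.07, adjusted p = 0.000696, limma). Mrpl35, with a bacterial counterpart, read 9.83, 9.80, 9.77 and 9.85 in WT and 10.08, 10.09, 10.07 and 10.02 in KO, and rose by 0.25 (SE 0.05, adjusted p = 0.00269). Mrpl12, a protein of the stalk that recruits translation factors, had WT hearts at 9.10 to 9.15 and KO hearts at 9.25 to 9.31. It rose by 0.16 (SE 0.04) with an adjusted p of 0.021, which ranged from 0.007 to 0.0698 over the alternatives. Leaving out WT replicate 4 or KO replicate 1 lost its call, at adjusted p of 0.0572 and 0.0698, as did median centring, at 0.0549.

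The largest fall belonged to Mrpl4, whose bacterial counterpart lines the exit tunnel. It read 9.50, 9.80, 9.53 and 9.58 in WT and 9.16, 9.18, 9.28 and 9.06 in KO. WT heart 2 was the highest and KO heart 4 the lowest, and the groups stayed apart. Mrpl4 fell to 74.0% of the WT level, a difference of -0.43 (SE 0.07, adjusted p = 0.0018), with a 95% interval from -0.60 to -0.27. Mrpl3, which sits near the catalytic centre, read 10.16, 10.10, 10.16 and 10.17 in WT and 9.79, 9.79, 9.81 and 9.71 in KO. It fell by 0.37 (SE 0.05, adjusted p = 0.000275), to 77.3%.

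Mrpl36, the counterpart of a small zinc-binding bacterial protein, read 8.66, 8.83, 8.68 and 8.66 in WT and 8.34, 8.31, 8.33 and 8.30 in KO. Its KO hearts lay within 0.04 of each other, and it fell by 0.39 (SE 0.05, adjusted p = 0.000451). Mrpl58 encodes a peptidyl-tRNA hydrolase built into the large subunit, which frees chains from stalled ribosomes. It read 8.29, 8.30, 8.22 and 8.28 in WT and 8.07, 7.95, 7.88 and 7.95 in KO, and fell by 0.31 (SE 0.05, adjusted p = 0.0018). Mrpl48, part of the central protuberance, read 8.87, 8.80, 8.85 and 8.72 in WT and 8.41, 8.40, 8.36 and 8.38 in KO. That cluster fell by 0.42 (SE 0.05, adjusted p = 0.000183), but it is the one whose numbering points away from the gene, and Mrpl48 has no other.

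The remaining falls were smaller. Mrpl34 fell by 0.25, Mrpl41 by 0.25, Mrpl27 by 0.24 and Mrpl57 by 0.19, with adjusted p between 0.0098 and 0.0153 and no overlap of the groups. Mrpl27, whose bacterial counterpart reaches into the catalytic centre, has a second and dimmer cluster that gave the same difference (-0.24). The dimmer cluster of Mrpl41 gave -0.09 (adjusted p = 0.301 over all clusters), so the fall of Mrpl41 rests on the cluster whose numbering points away from it. Mrpl57 lost its call without KO replicate 2, where its adjusted p of 0.0515 was the highest over the alternatives (lowest 0.00456). Of members that did not pass, Mrpl11, a stalk protein, differed by -0.19 (adjusted p = 0.0804) and Mrpl28 by -0.18 (adjusted p = 0.0949). Mrpl28 was tight in WT (8.19 to 8.22) and wide in KO (7.90 to 8.23), where heart 4 reached the WT level. Without KO replicate 4, Mrpl28 passed at -0.25 (adjusted p = 0.00698) and Mrps12 at -0.23 (0.048), and without WT replicate 2 Mrpl11 passed at -0.23 (0.038). The second and much dimmer cluster of Mrps33 passed (-0.29, adjusted p = 0.0271 over all clusters), with means of 4.56 in WT and 4.27 in KO. Its mean level lies below the brightness filter, so the main comparison would have left it out. The dimmer cluster of Mrps5 also passed (-0.22, adjusted p = 0.0469 over all clusters). The brighter clusters of Mrps33 and Mrps5 did not (-0.18 and -0.12).

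**Figure D2:**
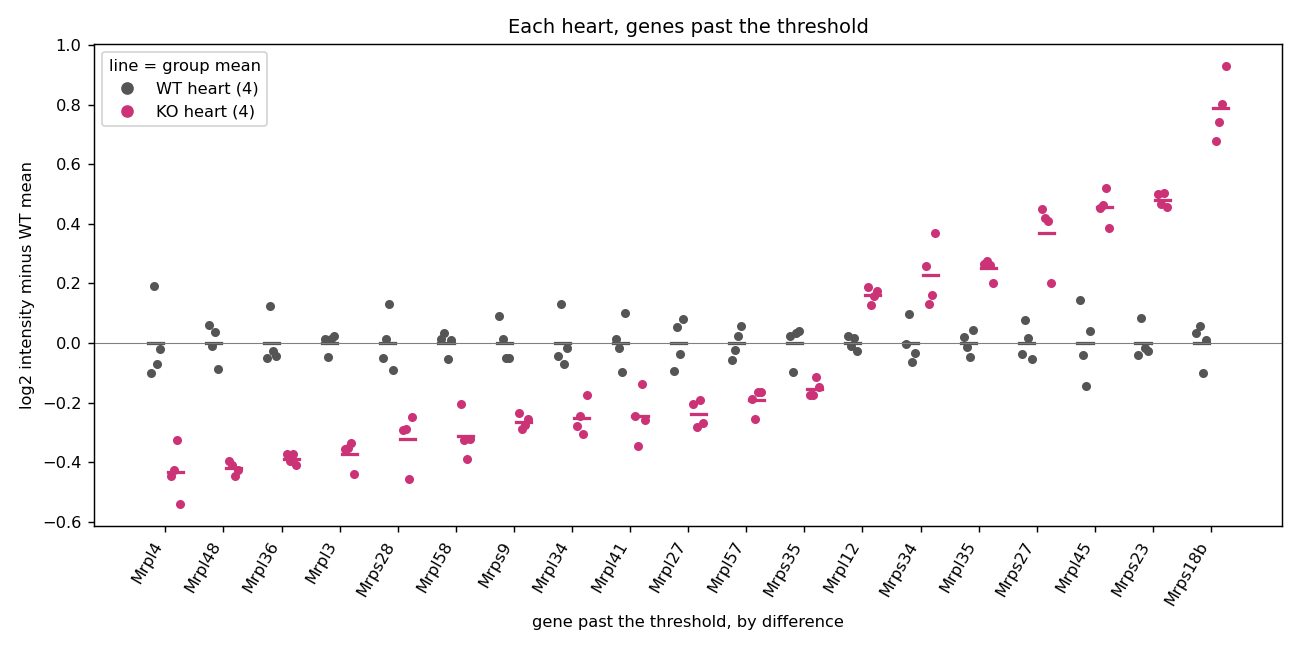
Log2 intensity of each heart minus the WT mean of the gene (y axis) for the 19 genes that passed the threshold (x axis, ordered by difference), with WT hearts in grey, KO hearts in pink and lines at group means, n = 4 each. KO and WT points do not overlap for any of the 19 genes; Mrps18b stands highest at 0.79 and Mrpl4 lowest at -0.43.

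Groups did not overlap for 22 of the 77 members, 8 with KO above WT and 14 with KO below, or 28.6% of members, the same percentage as the 28.6% of all genes tested. The 3 beyond the called genes were Mrpl33 (0.13, adjusted p = 0.099), Mrps5 (-0.12, adjusted p = 0.0942) and Mrpl10 (-0.12, adjusted p = 0.0976), which were picked out after their values were seen. The levels of single hearts were tight: the SD within WT had a median of 0.07 over members and the SD within KO 0.07. The brightest members, Mrps21 (11.28 ± 0.04 in WT and 11.23 ± 0.02 in KO) and Mrpl34 (10.35 ± 0.09 and 10.10 ± 0.06), and the dimmest, Mrps12 (6.06 ± 0.13 and 5.91 ± 0.15) and Mrps17 (6.16 ± 0.08 and 6.04 ± 0.11), each with SD over n = 4, show the span of signal over which they were read.

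By subunit, 12 of 48 large-subunit genes and 7 of 29 small-subunit genes changed, close to the share over all genes in both. In the large subunit 6.25% rose and 18.8% fell, with a median difference of -0.04. In the small subunit 13.8% rose and 10.3% fell (4 and 3 genes; 4 and 5 with median centring), with a median of -0.02, which became 0.01 with quantile normalisation. The mean over large-subunit genes, relative to WT, was -0.01 to 0.00 in WT hearts and -0.07 to -0.04 in KO hearts, which did not overlap. With quantile normalisation KO heart 4 (0.01) fell within the WT range of the large subunit (-0.03 to 0.01). The mean over small-subunit genes was -0.02 to 0.01 in WT hearts and -0.01 to 0.05 in KO hearts, with overlap. The large-subunit mean minus the small-subunit mean was -0.01, 0.00, 0.02 and -0.01 in WT hearts and -0.07, -0.06, -0.05 and -0.10 in KO hearts. It was lower in all KO hearts, also with quantile normalisation (-0.09 to -0.06 against -0.01 to 0.02). The small-subunit mean includes Mrps18b, whose rise of 0.79 was the largest of any member, and no mean without it was computed. No test was made of these means, since members were chosen with earlier results known. Moving Mrps18a and Mrps30 to the large subunit, and leaving out Mrps36, whose protein is a subunit of the oxoglutarate dehydrogenase complex, kept the counts of genes that rose and fell in both subunits. Mrps36 itself differed by -0.07 (adjusted p = 0.507). The large minus small mean was then -0.09 to -0.05 in KO hearts, while the median differences were close, -0.04 for the large subunit and -0.03 for the small.

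Changed genes were found in several parts of the ribosome. Near the catalytic centre 2 of 4 genes fell (Mrpl3 and Mrpl27), while Mrpl2 (0.00) and Mrpl16 (-0.09) did not pass. Around the exit tunnel Mrpl45 rose and Mrpl4 fell, of 7 genes. Of 5 measured stalk genes Mrpl12 rose, of 5 in the central protuberance Mrpl48 fell, and of 6 at the decoding site and messenger channel Mrps9 fell. The share changed was 28.6% around the exit tunnel and 16.7% at the decoding site and messenger channel, beside 24.6% of all genes. The shares of the stalk and the central protuberance lay between these 2 parts. The fall of Mrpl48 rests on the cluster whose numbering points away from the gene. No part was tested as a group.

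Mitoribosomal proteins that carry other names were also measured, and 3 of 4 changed. Chchd1, a small-subunit protein, rose by 0.59 (SE 0.08, adjusted p = 0.000424), from 8.02 to 8.19 in WT to 8.52 to 8.86 in KO. Ptcd3, a small-subunit protein with pentatricopeptide repeats like that of Mrps27, rose by 0.55 (SE 0.06, adjusted p = 0.000141), from 8.75 to 8.86 in WT to 9.26 to 9.50 in KO. Dap3, a GTP-binding protein of the small subunit, went the other way and fell by 0.32 (SE 0.05, adjusted p = 0.00171), from 8.20 to 8.28 down to 7.84 to 8.01. Gadd45gip1, of the large subunit, differed by 0.10 (adjusted p = 0.173).

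Factors that work on the mitoribosome were lower in KO where they passed. The shares called of the next lists, assembly factors (21.4%) and synthetases (26.3%), were near the 24.6% of all genes. Of 13 tested translation factors 5 fell and the other 8 did not pass. Oxa1l, which inserts nascent chains into the inner membrane, read 9.93 to 10.12 in WT and 9.57 to 9.68 in KO and fell by 0.40 (SE 0.06, adjusted p = 0.000553). Taco1, an activator of the translation of a cytochrome oxidase messenger, fell by 0.23 (SE 0.05, adjusted p = 0.00521), and Tufm, the elongation factor that delivers aminoacyl-tRNA, by 0.24 (SE 0.05, adjusted p = 0.00816). The share that fell, 38.5%, stands beside 13.9% of all genes, and the list's median was -0.05.

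Of 28 tested assembly and mitochondrial RNA factors 6 fell (21.4%, beside 13.9% of all genes) and the other 22 did not pass, with a median of -0.08. Mrm1, which methylates the ribosomal RNA of the large subunit, fell by 0.48 (SE 0.07, adjusted p = 0.000954). Lrpprc, which stabilises mitochondrial messengers, fell by 0.22 (SE 0.04, adjusted p = 0.0048), and Mpv17l2, an assembly factor, by 0.27 (adjusted p = 0.00773). Of 19 mitochondrial aminoacyl-tRNA synthetases and related enzymes 5 fell (26.3%), among them Qrsl1 (-0.25), Nars2 (-0.30) and Cars2 (-0.26), and the other 14 did not pass. The messengers that the mitoribosome translates are not analysed here.

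Regulators of nuclear genes for mitochondria changed in both directions, 3 up and 2 down of 15 (20.0% and 13.3%, beside 10.8% and 13.9% of all genes). Tfam, which packages mitochondrial DNA, rose by 0.43 (SE 0.11, adjusted p = 0.0183), Tfb2m, a mitochondrial transcription factor, by 0.28 and Myc by 0.63 (SE 0.17). Polrmt, the mitochondrial RNA polymerase, fell by 0.21 and the coactivator gene Ppargc1b by 0.33. Nrf1 differed by 0.01 (adjusted p = 0.952), Gabpa by -0.05 (adjusted p = 0.523) and Yy1 by 0.11 (adjusted p = 0.14), values picked out because their motifs were searched above. Of 17 genes of import and structure 1 rose and 1 fell (5.88% each, beside 10.8% and 13.9% of all genes). Hspa9, a chaperone of protein import, rose by 0.22 and Vdac1, a channel of the outer membrane, fell by 0.18.

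Related lists showed a different split. Of 61 tested cytosolic ribosomal protein genes 20 rose and 1 fell (32.8% and 1.64%), with a median of 0.14, and of 79 nuclear subunits of oxidative phosphorylation 1 rose and 19 fell (1.27% and 24.1%), with a median of -0.10. Cytosolic ribosomal genes have many processed copies, and shared hybridisation was not tested. The cytosolic list's mean was 0.10 to 0.22 in KO hearts and -0.02 to 0.01 in WT hearts. The oxidative phosphorylation mean was -0.13 to -0.11 in KO hearts 1 to 3 and -0.01 in KO heart 4. The mean over all mitoribosomal members was -0.05 to -0.01 in KO hearts, between both lists, and -0.01 to 0.01 in WT hearts, with KO heart 4 inside the WT range. These differences between lists are described, not tested.

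**Figure D3:**
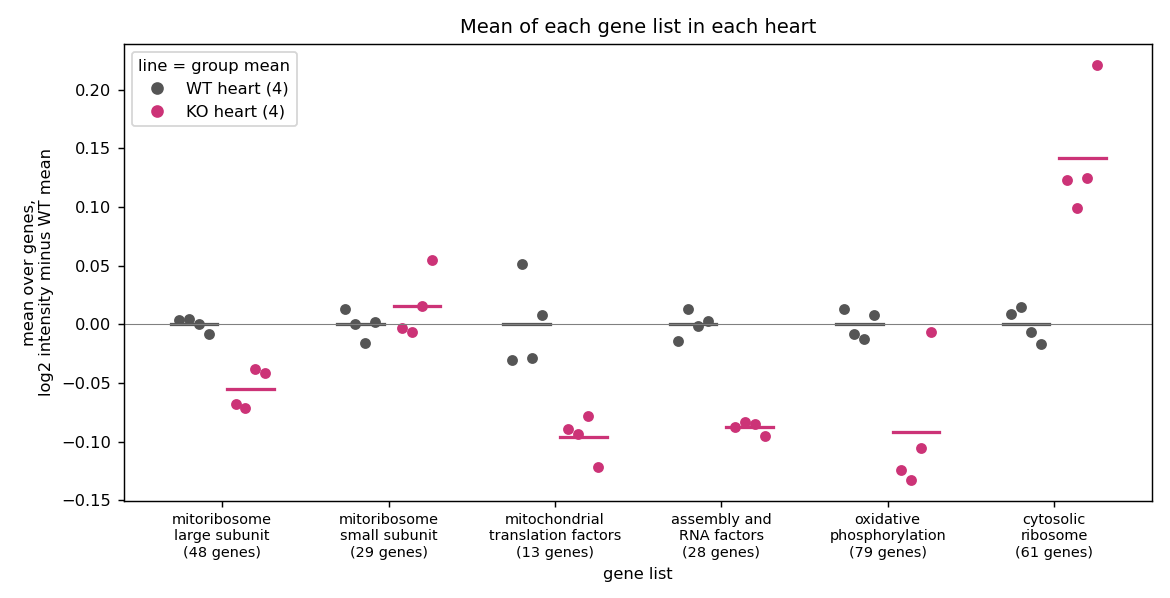
Mean over the genes of a list of log2 intensity minus the WT mean of each gene (y axis) in each heart, for 6 lists (x axis), with WT in grey, KO in pink and lines at group means, n = 4 each. The large mitoribosomal subunit lies at -0.07 to -0.04 in KO hearts, the small subunit at -0.01 to 0.05, oxidative phosphorylation lower except in KO heart 4, and the cytosolic ribosome higher in every KO heart.

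Macrophage markers moved with the groups beside all of these values. Their mean relative to WT was 1.08 to 1.34 in KO hearts, lowest in heart 4, and -0.12 to 0.10 in WT hearts. Fibroblast markers (2 of 8 rose, among them Lum by 0.38) were at 0.07 to 0.18 in KO and -0.09 to 0.14 in WT. Of 6 listed T and B cell markers 3 were bright enough to test, and their differences were -0.06 to 0.04 (lowest unadjusted p = 0.372, of Cd8a). The part of these cells in the differences of mitoribosomal genes was not tested.

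Genes that begin near a mitoribosomal gene on the opposite strand were also read, most of them outside the list. A start within 500 bases upstream on the other strand was found for 23 of the 68 members with an annotated start, and 17 such pairs had both genes tested. In 4 of the 17 pairs the neighbour changed, a share close to the 24.6% of all genes tested. Tmem63b fell beside Mrpl14 (-0.46 against 0.18) and Mitd1 rose beside Mrpl30 (0.26 against 0.12). Twnk fell beside Mrpl43 (-0.16 against 0.03) and Fau rose beside Mrpl49 (0.18 against -0.02). There was no pair in which both genes passed. For Mrps27, the only changed member with a tested neighbour, the neighbour Ptcd2 differed by -0.12 (adjusted p = 0.163) while Mrps27 rose by 0.37. Mrpl46 and Mrps11, both members, start within 42 bases of each other and differed by 0.14 (adjusted p = 0.181) and 0.00 (adjusted p = 0.991).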

How the data were processed

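RNA from 8 hearts was read on Affymetrix arrays, one array per mouse. Partek and RMA are named, without version or role, per the submitters' processing notes. The authors deposited linear intensities, judged so from the values (3.57 to 15357 on WT replicate 1). The genome build is not stated in any source used here. Log2 was taken with no further scaling. Of 27541 clusters, 21631 name a single gene. The brightest cluster stood for each of 19933 genes, and genes below the 25th percentile of mean level (log2 4.50) were left out. KO and WT were compared in R 4.3.3 with limma 3.58.1 (lmFit, eBayes, two-sided, no covariate). The same fit was also run on simulated data built from the means and spread of these genes.

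Members and lists were chosen with earlier results of these data known. Members were named if they passed the threshold, were closest to it or had the largest differences, were brightest or dimmest, had clusters that differ in call, or have an ambiguous place in the ribosome; of each list the smallest p-values were named. Numbers shared by WT and KO titles were not taken to pair the hearts. Alternatives were other scalings, filters, variance models, weights, clusters, pseudocounts, thresholds, the block and leaving out each array. Promoter sequences are RefSeq's (GRCm38.p6), matched by symbol. Figures used matplotlib 3.10.9. The number of arrays limits precision.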

Additional observations from a re-analysis of the deposited data

Results flagged for a closer look

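Of 62 groups of 4 hearts checked among the named members, 5 held a heart whose gap to the others took most of the group's range; chance gives about 1 in 20. In WT, heart 2 stood apart for Mrpl3 (10.10, others 10.16 to 10.17), Mrpl36 (8.83, others 8.66 to 8.68), Mrps23 (9.89, others 9.76 to 9.78) and Mrps35 (8.46, others 8.58 to 8.60). In KO, heart 4 stood apart for Mrps27 (7.17, others 7.37 to 7.42). Without these hearts Mrpl3, Mrpl36, Mrps23 and Mrps27 passed the threshold, as they did under all 17 alternatives.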

How the results depend on the processing

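Of the 19 changed members, 15 passed under all 17 alternatives run for single genes. Those alternatives do not include the stricter threshold or the choice of own-chromosome clusters. Mrpl12, Mrpl57, Mrps34 and Mrps35 lost their call at least once, and no named member changed sign. At a threshold of 0.01, 5 members rose and 8 fell. Of the 15, Mrpl34 and Mrpl41 did not pass it (adjusted p = 0.0102 and 0.0144, limma). Of 12 named members that did not pass, 7 passed under some alternative, Mrps6 and Mrps33 most often (7 each). Small-subunit genes that fell numbered 5, not 3, with median centring, the stricter filter on dim genes, an intensity trend with robust variances, array weights and the mean of clusters. The median over members was -0.013 with quantile normalisation (-0.013 over all genes) and -0.065 with median centring (-0.029 over all genes). For the large subunit these were -0.013 and -0.066, and for the small subunit 0.0079 and -0.044, and -0.048 with array weights. Causes were not tested. Array weights gave the most calls, 8 members that rose and 18 that fell, 13 of these in the large subunit. With single arrays left out, members that rose numbered 5 to 7 and members that fell 10 to 17, small-subunit falls 2 to 5 (5 without KO replicate 4), large-subunit rises 2 to 3, large-subunit falls 8 to 12 and small-subunit rises 3 to 4. The replicate block gave 5 that rose and 11 that fell, without Mrpl12, Mrps34 and Mrps35. Correlations of deviations between hearts with the same number were -0.04 to 0.08, within the -0.23 to 0.23 between hearts with different numbers. These values give no sign of pairing, but 4 pairs are too few to exclude it. Using clusters on the gene's own chromosome, chosen after seeing the data and leaving out Mrpl48, gave 7 and 11; large-subunit falls were then 7 and small-subunit falls 4, and Mrpl41 on its other cluster did not pass (-0.09, adjusted p = 0.301 over all clusters). For Mrps33 the own-chromosome choice takes the dimmer cluster, which is the added small-subunit fall. Its mean level lies below the brightness filter, so these counts are not on the filter of the main comparison. With 4 hearts per group, differences under about 0.15 did not pass.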
